A study of Mus musculus with 6 samples.

Results

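The intermediate filament genes of the mouse lens were examined in RNA-sequencing libraries of newborn (P0) Celf1cKO and control lenses. They were chosen by name and comprise the beaded filament pair Bfsp1 and Bfsp2, the filament genes Vim, Nes, Synm, Gfap, Krt8 and Krt18, and the filament linker Plec, and all 9 were found once each among the 13931 genes with a value. Celf1 encodes an RNA-binding protein that controls the stability, splicing and translation of its target mRNAs. The Celf1cKO mice carried 1 germline knockout allele of Celf1 (Celf1lacZKI), 1 allele whose exon 5 is flanked by loxP sites, and the Pax6GFPCre transgene, whose Cre acts in the lens from the placode onward and also in the pancreatic lineage. By the labels the controls were Celf1lacZKI/+, so that these lenses would also carry the germline knockout allele, whereas the methods of the study use mice with the loxP allele and no Cre as controls where nothing else is said. Which of the genotypes the controls had is thus uncertain for every comparison below. Both groups were on a mixed C57BL/6J and FVB background, and every library, 3 Control and 3 Celf1cKO, came from a pooled pair of P0 lenses, that is, of whole lenses with their epithelium and any attached vessels.

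Lens fiber cells fill the lens and lose their nuclei and organelles as they mature. Their cytoskeleton holds 2 intermediate filament systems. One is the vimentin filament, which epithelial cells and young fiber cells share with many other cell types. The other is the beaded filament, found in the lens and built from filensin (Bfsp1) and phakinin or CP49 (Bfsp2), which need each other to assemble. Loss of either protein is known to remove the beaded filament and to harm the optical quality of the lens, and mutations in either gene cause cataract in humans.

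The libraries held between 40694454 and 44387151 reads on genes. The Celf1 transcript was below every Control library in every Celf1cKO library, at 9.95, 9.94 and 9.34 log2 CPM (read counts scaled to library size, as CPM, on a log2 scale) in Controls 1 to 3 and 8.93, 7.66 and 7.83 in the Celf1cKO libraries. The gene-level value does not separate transcripts with and without exon 5. Of the 9 lens fiber markers with a value, 4 were reduced and none elevated by the cut-offs given below, beside 2.63% and 4.77% of all genes. Crystallin genes took 45.8% to 46.9% of the reads in Control libraries and 34.7% to 38.5% in Celf1cKO libraries. The summed level of 4 Y-linked genes was 144 CPM in Control libraries 1 and 2 and between 0.381 and 0.453 CPM in Control library 3 and all Celf1cKO libraries. Control libraries 1 and 2 thus held male lenses, and Control library 3 was the 1 control that, like the Celf1cKO libraries, showed none. Retina markers were also highest in Control library 3, as given with Nes and Gfap below.

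A gene was called reduced or elevated where limma's test on the log2 CPM values gave a Benjamini-Hochberg adjusted p under 0.05 over all genes, the log2 fold-change passed 0.58 in either direction and its average level as the authors give it exceeded 1 log2 CPM. Of the 9 genes, 7 were above this expression cut-off, and Krt8 and Krt18 were below it. Bfsp1 and Nes were reduced in Celf1cKO lenses, and 0 of the 9 genes were elevated, beside 2.63% of all genes reduced and 4.77% elevated. In 3 of the 9 genes, Bfsp1, Nes and Gfap, every Celf1cKO library lay below every Control library, which held for 17.0% of all genes. With replicate number as a block, Gfap was reduced as well, beside 3.75% of all genes reduced in that fit.

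**Figure D1:**
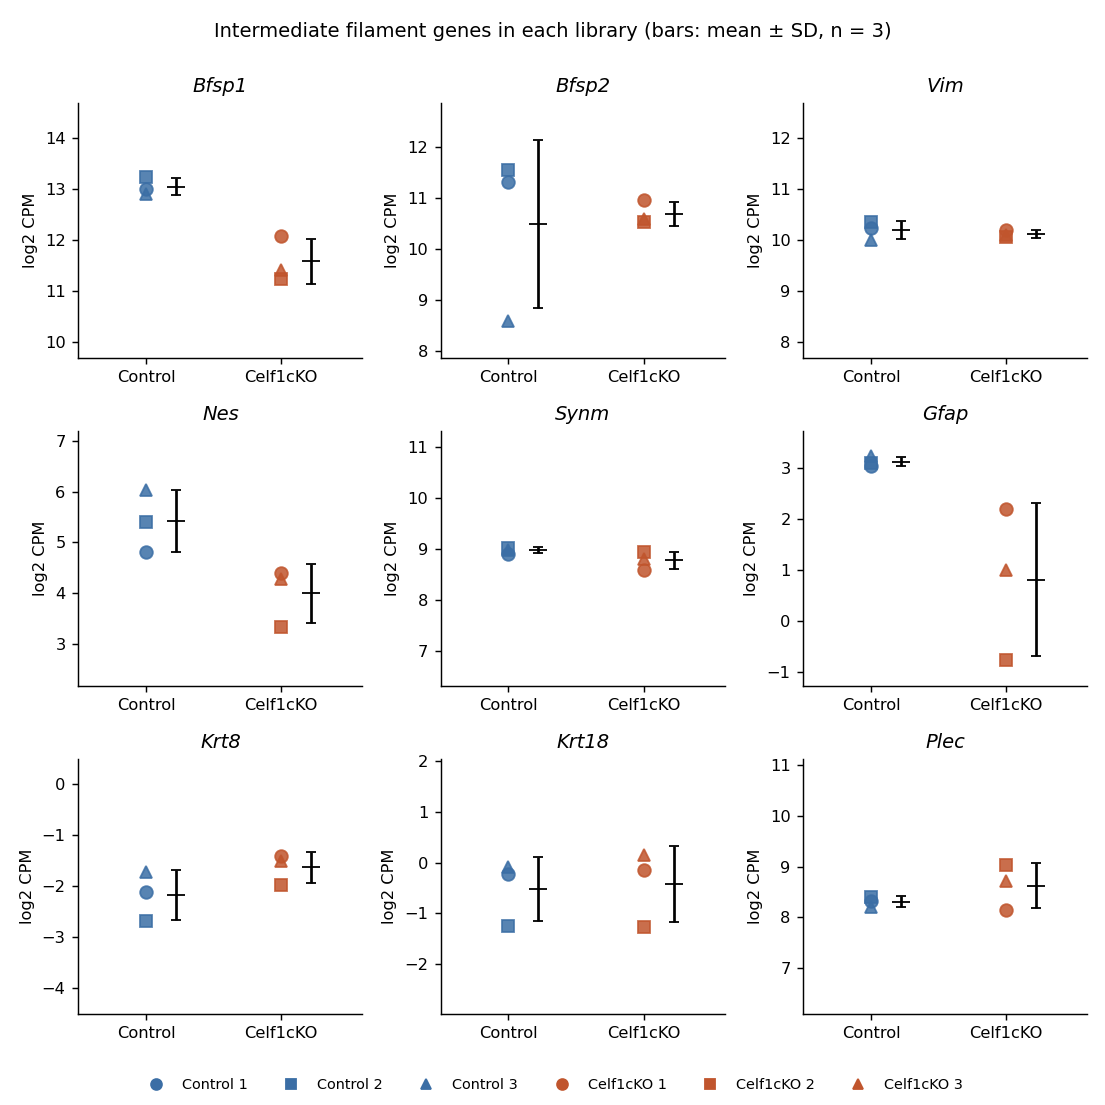
Each panel plots the log2 CPM of 1 gene in the 3 Control libraries (blue) and the 3 Celf1cKO libraries (orange), with the mean and SD as bars; every vertical axis spans at least 5 log2 units. The Celf1cKO points of Bfsp1, Nes and Gfap lie below all Control points, and the Bfsp2 point of Control library 3, at 8.59, lies below the other 5 libraries.

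Bfsp1, which encodes filensin, the larger subunit of the beaded filament, had 13.00, 13.24 and 12.91 log2 CPM in Controls 1 to 3. In Celf1cKO libraries 1 to 3 it had 12.08, 11.24 and 11.42 log2 CPM. The groups did not overlap, and the highest Celf1cKO value belonged to library 1, which also kept the most Celf1 transcript. Celf1cKO library 1 held the highest crystallin share of its group as well, at 38.5%, so this place was not particular to Bfsp1. The part of the Celf1 level in it was not tested. In reads, Bfsp1 had 303352 to 359673 per Control library and 117467 to 186567 per Celf1cKO library, so that counting error was negligible beside the spread between libraries. The log2 fold-change was -1.47 (SE 0.23, 95% confidence interval -2.01 to -0.93, limma adjusted p = 0.0139), a level 2.77-fold lower in Celf1cKO lenses. Without Control library 2 the adjusted p was 0.0634 and without Celf1cKO library 3 it was 0.0784, and in each of these fits only 1 of all the genes passed the cut-offs. Against Control library 3 alone, the control without male lenses, the mean of the Celf1cKO libraries was lower by 1.33 log2 units. A fit with the presence of Y-linked reads as a covariate rests on that same library and gave -1.33, with the call lost.

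Bfsp1 lies on chromosome 2 at 143826528 to 143863173, minus strand (GRCm38, GENCODE M21). The nearest genes on either side of it were not called. Dstn, which encodes the actin-severing protein destrin and lies 84.5 kb away by gene midpoint, showed a log2 fold-change of 0.17 (adjusted p = 0.192). Rrbp1, a ribosome-binding protein of the endoplasmic reticulum, had -0.03 (adjusted p = 0.846), and Snx5, a sorting nexin, had -0.29 (adjusted p = 0.077). On the other side, Snrpb2 had 0.13 (adjusted p = 0.632), while Pcsk2 and Pcsk2os2 had -0.95 (adjusted p = 0.269) and -0.53 (adjusted p = 0.50).

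The genes whose profiles over the 6 libraries lay closest to that of Bfsp1 were Eif5b, Crygb and Gm20757, with root mean square differences of 0.0731, 0.130 and 0.135 log2 units after each gene was centred on its own mean. Crygb, a gamma-crystallin of fiber cells, had 14.66, 14.80 and 14.81 log2 CPM in Controls 1 to 3 and 13.90, 13.14 and 13.29 across Celf1cKO libraries 1 to 3. Eif5b, a translation initiation factor, had 10.09, 10.31 and 10.10 in the Control libraries and 9.23, 8.53 and 8.54 in the Celf1cKO libraries. In each of these genes, as in Bfsp1, Celf1cKO library 1 held the highest of the Celf1cKO values. The genes were picked for their likeness over these libraries, so this shared order is no separate result.

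The 250 bases before the RefSeq starts of Bfsp1 and Nes, the 2 genes called reduced, are shown because both hold the letters TGCTGA on 1 strand. These letters form the core of the element bound by MAF transcription factors, a family whose members drive many fiber cell genes. The sequences run 5′ to 3′ on the gene's strand in GRCm38.p6 (chr2:143863174-143863423, minus strand, for Bfsp1 and chr3:87970843-87971092, plus strand, for Nes), with the match to TGCTGA or its reverse complement TCAGCA in capitals.
Bfsp1: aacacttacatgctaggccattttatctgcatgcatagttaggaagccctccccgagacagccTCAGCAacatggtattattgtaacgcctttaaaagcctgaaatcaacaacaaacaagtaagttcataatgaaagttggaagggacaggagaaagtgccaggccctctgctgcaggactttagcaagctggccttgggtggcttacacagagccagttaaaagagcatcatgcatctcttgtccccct
Nes: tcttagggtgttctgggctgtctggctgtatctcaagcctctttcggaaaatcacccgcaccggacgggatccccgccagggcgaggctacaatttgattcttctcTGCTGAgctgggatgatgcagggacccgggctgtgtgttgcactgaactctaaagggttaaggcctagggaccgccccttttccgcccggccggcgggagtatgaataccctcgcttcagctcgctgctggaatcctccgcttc
Krt18 also held 1 match, and Vim, Synm, Gfap, Krt8 and Bfsp2 held none, with no window at hand for Plec. The windows of Bfsp2, Vim and Gfap lie wholly inside the genes as GENCODE M21 annotates them, and those of Nes, Krt8 and Krt18 in part, since the RefSeq starts differ. Of the 32851 promoter windows of this length, 16.1% held the letters on either strand, and of the 13877 windows of genes in the table, 13.2% did. A match is a description of the letters and not a binding site.

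Bfsp2, which encodes phakinin, had 11.33 and 11.56 log2 CPM in Control libraries 1 and 2 but 8.59 in Control library 3. The Celf1cKO libraries 1 to 3 had 10.96, 10.53 and 10.59 log2 CPM. The Celf1cKO values thus lay close together, below 2 of the controls and far above the third. Over all libraries the log2 fold-change was 0.20 (SE 0.71, 95% confidence interval -1.46 to 1.86, adjusted p = 0.878), an interval that includes both a large fall and a large rise. Without Control library 3 the direction turned, to -0.75 (SE 0.16, adjusted p = 0.0587), and the 2 remaining controls lay above all Celf1cKO libraries. Those 2 controls held the male lenses, and no Celf1cKO library showed Y-linked expression. In that fit, genotype and the presence of Y-linked reads thus cannot be told apart. With the Y-linked covariate, which sets the Celf1cKO libraries against Control library 3, the value was 2.10. That fit cannot measure the spread of a single library, so no error is given for it. The direction for Bfsp2 therefore depended on 1 control library.

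Control library 3 had 15219 Bfsp2 reads, against 98455 and 111953 in the other controls, so its low value was not a matter of few reads. It lay 2.85 log2 units below the mean of the other controls, whereas Bfsp1 lay 0.21 below. Among the 10640 genes above the expression cut-off, Control library 3 lay below the lowest of the other 5 libraries by 1.94 log2 units in Bfsp2, the third largest such gap after Ankrd66 and Chac1, which had far fewer reads. These 2 genes were picked out after the values were seen. In all, Control library 3 lay outside the range of the other 5 libraries by more than 0.5 log2 units in 340 of the 10640 genes (3.20%), and Celf1cKO library 2 did so in 696 (6.54%), so each of these 2 libraries stood apart more often than the other 4, which did so in 0.395% to 1.46% of the genes.

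Bfsp2 lies on chromosome 9 at 103424924 to 103480420, minus strand. Among its nearest neighbours, Cdv3 was 8.71, 8.71 and 8.74 log2 CPM in Controls 1 to 3, with no drop in library 3. Trf, which encodes transferrin, was 1.26 log2 units lower in Control library 3 than the mean of the other controls, and Topbp1, a DNA replication and damage protein, was 0.52 higher. Tmem108 and Gm29154 on the other side were 0.36 and 0.99 higher. The neighbours thus moved both ways, by no more than 1.26 log2 units against 2.85 for Bfsp2. Within 10 Mb of Bfsp2, and without it, Control library 3 lay outside the other libraries in 10 of 145 genes (6.90%), 2 of them below, and over chromosome 9 in 28 of 605 (4.63%).

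**Figure D2:**
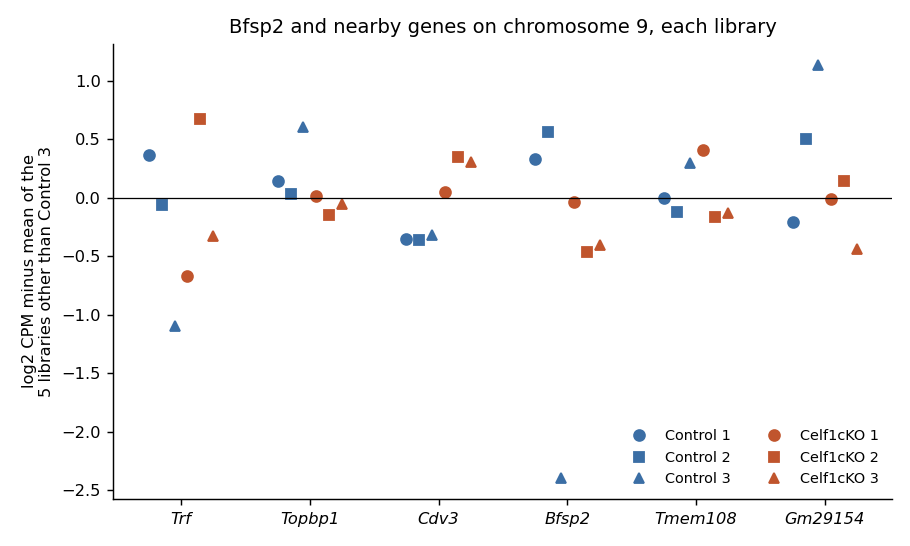
The plot gives, for Bfsp2 and nearby genes in the table, 3 on one side and 2 on the other along chromosome 9, the log2 CPM of each library minus the mean of the 5 libraries other than Control library 3. The Bfsp2 value of Control library 3 lies more than 2 log2 units below the line, and its values for the neighbours lie on both sides of the line.

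Inbred FVB mice are known to carry a defective Bfsp2 allele from whose transcript exon 2 is missing, which shifts the reading frame, while C57BL/6J mice carry an intact one. The lenses came from a mixed background with FVB, and the genotype at Bfsp2 is not given in the sources used here. Exon 2 of Bfsp2 (of 7 exons, chr9:103453062-103453144, minus strand, GRCm38) is 83 bases long, which leaves a remainder of 2 after division into codons. It is shown in capitals between 30 bases of exon 1 and 30 bases of exon 3 in lower case, as they follow each other in the GENCODE M21 transcript, because it is the stretch by which the alleles can be told apart in reads.
Bfsp2: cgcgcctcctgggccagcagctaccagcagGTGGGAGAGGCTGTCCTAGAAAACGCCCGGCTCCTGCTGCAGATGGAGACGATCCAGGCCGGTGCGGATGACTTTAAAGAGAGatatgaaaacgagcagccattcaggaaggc
The deposited values count whole genes, so the reads on this exon were not examined, and the part of the Bfsp2 genotype in these values was not tested.

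Myo7a, Saxo2 and Rps18 had the profiles closest to that of Bfsp2, at root mean square differences of 0.458, 0.507 and 0.514 log2 units, several times those found for Bfsp1. Rps18, a ribosomal protein gene on another chromosome, had 8.81, 8.96 and 7.53 log2 CPM in Controls 1 to 3 and 8.76 to 8.87 in the Celf1cKO libraries. Its low value in Control library 3 is the feature it shares with Bfsp2, and the one by which it was picked.

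Vim, which encodes vimentin, had 10.24, 10.35 and 10.001 log2 CPM in Controls 1 to 3 and 10.21, 10.06 and 10.11 across Celf1cKO libraries 1 to 3. The groups overlapped, and the whole range over 6 libraries was narrow. The log2 fold-change was -0.08 (SE 0.11, 95% confidence interval -0.34 to 0.19, adjusted p = 0.695), so that a change past the 0.58 cut-off in either direction lay outside the interval. The sign was not settled, since scaling by total counts gave 0.15 (adjusted p = 0.272) and quantile normalization 0.08 (adjusted p = 0.523). Total-count scaling raised the median log2 fold-change of all genes above the expression cut-off from 0.00 to 0.23, so that relative to that median Vim was still lower. Usf1, Fkbp9 and Auh lay closest to its profile, at 0.0225, 0.0245 and 0.0264 log2 units, and none of them was called.

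**Figure D3:**
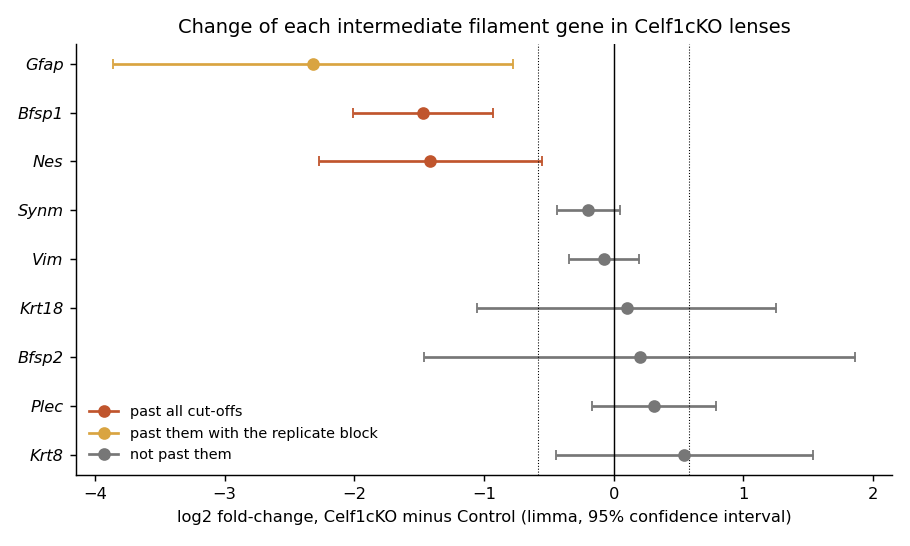
The plot gives the log2 fold-change of each gene (Celf1cKO minus Control) with its 95% confidence interval from limma; dotted lines mark the 0.58 cut-off. The intervals of Gfap, Bfsp1 and Nes lie below 0, those of Vim and Synm are narrow and include 0, and that of Bfsp2 spans -1.46 to 1.86.

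Levels of different genes were compared per length, as CPM per kilobase of all annotated exons. In the Control libraries Bfsp1 had 3565 ± 431 (SD, n = 3), Bfsp2 1172 ± 828, Vim 249 ± 30.5, Synm 63.3 ± 2.56 and Plec 17.6 ± 1.22 CPM per kilobase. Nes followed at 7.06 ± 2.94, Gfap at 2.06 ± 0.135, Krt18 at 0.481 ± 0.192 and Krt8 at 0.0927 ± 0.0374. In this order only the Control values of Bfsp2 and Vim overlapped between neighbours, and that through Control library 3, where Bfsp2 had 228 and Vim 216 CPM per kilobase. In the Celf1cKO libraries the order of the means was the same, but Bfsp1 (1012 to 1818) overlapped Bfsp2 (871 to 1170), and Gfap overlapped Krt18.

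Within the summed level of the 9 genes, Bfsp1 made up 64.9%, 65.4% and 85.7% in Controls 1 to 3 and 55.0%, 46.0% and 48.3% across Celf1cKO libraries 1 to 3. Bfsp2 made up 28.7%, 28.7% and 6.05% in the Control libraries and 35.4%, 39.6% and 38.4% in the Celf1cKO libraries. Vim made up 4.85%, 4.46% and 5.75% against 7.53%, 10.2% and 9.82%. In all 3 shares the groups did not overlap, with Bfsp1 lower and Bfsp2 and Vim higher in every Celf1cKO library, and the exact two-sided permutation test gave p = 0.1 for each, the smallest value possible with 3 libraries against 3. The shares sum to 100% in a library, so these 3 results are not independent of each other. Per length of 1 coding transcript, which is much shorter than all exons for Vim, the Vim share was 8.54% to 10.7% in Control and 14.1% to 18.8% in Celf1cKO libraries.

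The ratio of Bfsp1 to Bfsp2 per kilobase was 2.26 and 2.28 in Control libraries 1 and 2, 14.2 in Control library 3, and 1.55, 1.16 and 1.26 across Celf1cKO libraries 1 to 3. The ratio of Bfsp1 to Vim did not rest on Control library 3, at 13.4, 14.7 and 14.9 in the Control libraries against 7.30, 4.50 and 4.92 in the Celf1cKO libraries. Both ratios were lower in all Celf1cKO libraries than in any Control library (exact permutation test on log2 ratios, two-sided p = 0.1, the smallest possible). These ratios hold under any scaling of whole libraries.

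**Figure D4:**
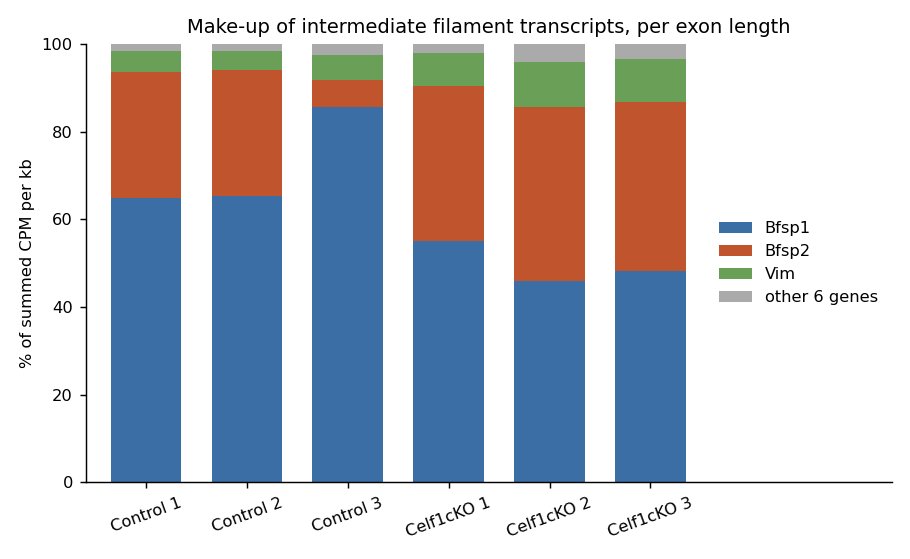
Stacked bars give, for each library, the percentage of the summed CPM per kilobase of exon of the 9 genes that came from Bfsp1, Bfsp2, Vim and the other 6 genes together. The Bfsp1 part is between 64.9% and 85.7% in Control and between 46.0% and 55.0% in Celf1cKO libraries, and the Bfsp2 part is smallest, at 6.05%, in Control library 3.

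Nes encodes nestin, a filament protein of progenitor cells, vessel walls and young fiber cells that assembles with vimentin. It had 4.82, 5.41 and 6.03 log2 CPM in Controls 1 to 3 and 4.40, 3.34 and 4.27 across Celf1cKO libraries 1 to 3. The groups did not overlap, although Control library 1 and Celf1cKO library 1 lay within 0.42 of each other. The log2 fold-change was -1.41 (SE 0.37, adjusted p = 0.0492, and 0.0359 with the replicate block), a level 2.66-fold lower in Celf1cKO lenses. The call was close to the threshold, and the adjusted p rose to 0.0501 with limma voom, 0.0555 with scaling that left out the crystallin genes, 0.058 with total-count scaling and 0.0974 without a variance trend. Leaving out Control libraries 1, 2 or 3 gave 0.0507, 0.136 and 0.127, and leaving out Celf1cKO libraries 2 or 3 gave 0.104 and 0.116. With the Y-linked covariate, which rests on Control library 3, the highest in Nes, the log2 fold-change was -2.03 and the call was lost.

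Gfap encodes the glial fibrillary acidic protein, the filament protein of astrocytes, which the epithelium of the mouse lens is also known to make. It had 3.05, 3.10 and 3.23 log2 CPM in Controls 1 to 3 and 2.20, -0.78 and 0.997 across Celf1cKO libraries 1 to 3. The Control values lay close together and all above the widely spread Celf1cKO values. In reads this was 315 to 367 per Control library and 195, 26 and 96 across Celf1cKO libraries 1 to 3. The log2 fold-change was -2.32 (SE 0.66, 95% confidence interval -3.86 to -0.78) with an adjusted p of 0.0626, and 0.0407 with the replicate block, past the cut-offs. It was also past them with limma voom (0.0383), quantile normalization (0.0475) and log2(CPM + 1) (0.0393), and without Celf1cKO library 1, where the log2 fold-change was -3.02 (0.00916). Without Celf1cKO library 2 the log2 fold-change was -1.53 (adjusted p = 0.0568), and without any of the other 4 libraries the adjusted p was 0.138 to 0.157. With the Y-linked covariate the log2 fold-change was -2.42, and Gfap was not called.

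Markers of other cells that the lenses could hold are given beside Nes and Gfap. Their calls stand beside 2.63% of all genes reduced and 4.77% elevated. The 8 markers of lens epithelium summed to 676, 716 and 708 CPM in Controls 1 to 3 and to 561, 197 and 405 CPM across Celf1cKO libraries 1 to 3, and 2 of them were reduced and none elevated. The 7 endothelial markers summed to 93.3 to 116 CPM in Control libraries and to 112, 22.4 and 53.6 CPM across Celf1cKO libraries 1 to 3, with none called. The 5 pericyte and smooth muscle markers summed to 69.8 to 94.5 CPM and to 70.3, 25.2 and 47.8 CPM, with none called. With the replicate block, Pdgfrb was reduced (-1.31, adjusted p = 0.0462, against 0.0793 without the block). Acta2 of the same list went the other way (0.56, adjusted p = 0.184) and was highest in Celf1cKO library 2, at 17.5 CPM, while Tagln had -0.15. Celf1cKO library 2, lowest in all of these sums, was also lowest in Nes and Gfap. A low value in that library was not particular to these genes. Of the 10640 genes above the expression cut-off, 612 lay more than 0.5 log2 units below all other libraries there. In each of the other libraries, 18 to 110 genes did so. The 6 astrocyte and Mueller glia markers with a value summed to 23.8 to 60.5 CPM in Control and 35.8 to 61.1 CPM in Celf1cKO libraries with none called, and Control library 2 had the lowest sum. The 5 neural retina markers with a value summed to 10.8, 7.99 and 24.8 CPM across Controls 1 to 3 and to 6.01, 3.19 and 11.5 CPM across Celf1cKO libraries 1 to 3, highest in Control library 3 and lowest in Celf1cKO library 2, as Nes was. Of these, 1 was reduced, the neuronal RNA-binding protein gene Elavl4, at -1.86 (SE 0.39, adjusted p = 0.0269), and none elevated. In whole lenses, fewer cells of a type and less RNA per cell cannot be told apart, and the part of these cells in the Nes and Gfap values was not tested.

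**Figure D5:**
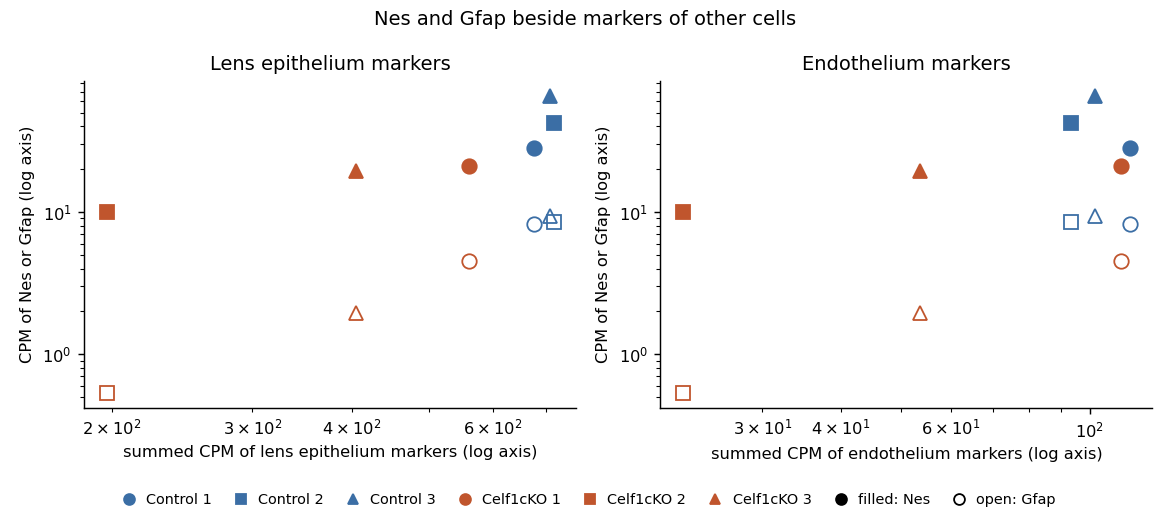
The CPM of Nes (filled) and Gfap (open) in each library is plotted against the summed CPM of lens epithelium markers (left) and of endothelial markers (right), all on log axes. Celf1cKO library 2 is lowest on every axis, and on the right Celf1cKO library 1 lies among the Control libraries for the endothelial sum (112 CPM).

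Synm and Plec link filaments to other structures. Synm, or synemin, joins vimentin-type filaments to junctions and had 8.91 to 9.02 log2 CPM in the Control libraries and 8.59 to 8.93 in the Celf1cKO libraries. Its log2 fold-change was -0.20 (SE 0.10, adjusted p = 0.248), and 0.03 under total-count scaling. Plec, the cytolinker plectin, had 8.31, 8.41 and 8.21 log2 CPM in Controls 1 to 3 and 8.15, 9.02 and 8.71 across Celf1cKO libraries 1 to 3, with a log2 fold-change of 0.31 (SE 0.20, adjusted p = 0.337). In Plec, Celf1cKO library 1 lay below all controls and the other Celf1cKO libraries above them.

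Krt8 and Krt18, the keratin pair of simple epithelia, were near the limit of detection, with 4 to 15 and 14 to 52 reads per library. Krt8 showed a log2 fold-change of 0.54 (SE 0.42, adjusted p = 0.423) and Krt18 of 0.10 (SE 0.49, adjusted p = 0.914), and their groups overlapped. Both genes have processed copies in the genome, and only uniquely mapped reads were counted, so their levels are uncertain. Of 9 markers of surface and corneal epithelium, among them Krt5, Krt14 and Krt12, only Perp and Upk1b had a value.

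The other genes of the intermediate filament family with a value were 18, and 8 of them were above the expression cut-off. Of these, 1 was elevated and 1 reduced, beside 4.77% and 2.63% of all genes. The median log2 fold-change of the 18 was -0.20, beside -0.04 for all genes tested. Lmna, which encodes the nuclear lamins A and C, was elevated by 0.96 (SE 0.14, adjusted p = 0.012), from 3.64 to 3.85 log2 CPM in the Control libraries to at least 4.50 in the Celf1cKO libraries. The B-type lamins were not called, at -0.68 for Lmnb1 (adjusted p = 0.157) and -0.50 for Lmnb2 (adjusted p = 0.137). Krt40, a keratin known from hair, was reduced, with a log2 fold-change of -2.10 (SE 0.38, adjusted p = 0.0188).

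Among the plakins and linkers, which tie filaments to junctions and the cell surface, 16 of 17 listed genes had a value. Of these, 1 was elevated and none reduced, beside 4.77% and 2.63% of all genes, and the median log2 fold-change was 0.05. The elevated gene was Dsp, whose product desmoplakin anchors filaments at desmosomes. It had -0.10, -0.42 and -0.14 log2 CPM in Controls 1 to 3 and 4.56, 5.50 and 5.31 across Celf1cKO libraries 1 to 3, a log2 fold-change of 5.34 (SE 0.27, adjusted p = 0.00149). Dsp thus rose 40.5-fold on this scale while Plec, Dst, Macf1 and Ppl of the same protein family were not called. Jup, which encodes plakoglobin, a partner of desmoplakin at desmosomes, showed a log2 fold-change of -0.79 (adjusted p = 0.0981, and 0.048 with the replicate block, past the cut-offs).

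Of the 11 genes whose products bind the beaded filament or share the fiber cell membrane skeleton, 1 was reduced and none elevated. Of all genes, 2.63% were reduced and 4.77% elevated. The median log2 fold-change of the 11 was -0.36. In 6 of them, Mip included, every Celf1cKO library lay below every Control library, which held for 17.0% of all genes. The reduced gene was Cryab, which encodes the chaperone alpha-B crystallin, at -0.73 (SE 0.17, adjusted p = 0.0387, and 0.0658 with the replicate block, where it was no longer called). Tmod1, the actin-capping protein of the membrane skeleton, fell by 0.45 (adjusted p = 0.0361), short of the fold-change cut-off. The spectrin genes Sptan1 and Sptbn1 had 0.09 and 0.09, and Mip, the fiber cell aquaporin that binds filensin, had -0.37 (adjusted p = 0.188).

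The letters TGTTTGT, the core of a GU-rich element known to be bound by CELF1, were searched on the sense strand of 1 coding transcript per gene. None of the 9 genes held them in the 3′ UTR, where 26.2% of 13145 genes in the table did. Most of these UTRs are short, at 138 bases for Bfsp1, 217 for Bfsp2 and 312 for Vim. Among genes with a 3′ UTR within 25% of the same length, 2.89%, 4.75% and 6.15% held the letters, against 52.3% for the 3067 bases of Synm. The absence of these letters says nothing of whether CELF1 binds the transcripts.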

How the data were processed

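RNA from 3 Control and 3 Celf1cKO pools of P0 lenses was sequenced as strand-specific paired-end libraries. The authors aligned trimmed reads to GRCm38.p6 with STAR (2.7.8a), discarded reads that did not map uniquely, obtained gene counts with featureCounts (2.0.0) and deposited log2 CPM values per library after edgeR normalization. Their average log2 CPM served for the expression cut-off. The F score, p-value, FDR and fold-change columns that the authors deposited, and their group means, were not used. Groups came from the labels. The lowest value, -4.41, marks genes without a read. Worked back from the steps of the values, 100% gave whole reads (within 0.01).

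Groups were compared with limma (3.58.1, R 4.3.3) on the deposited values, with a variance trend and adjustment over all 13931 genes. The fit was also run on simulated counts, with a looser fold-change cut-off and no outlying library. That run does not measure the error of the calls given here. Same-numbered libraries deviated together from their group means (correlations 0.302, 0.417 and 0.348 over 10640 genes). Correlations between differently numbered libraries are not given, and the labels do not say that equal numbers mean pairs. The main tests left the replicate number out, and the fit with it as a block was an alternative. Replicates were separate pools. Shares and ratios were compared by exact permutation tests. Positions, exon lengths and transcripts came from GENCODE M21, promoter windows from RefSeq. Beside the genes examined, the named genes were the called genes of each list, the closest profiles and nearest neighbours of the beaded filament genes, and any picked with their values in view; 1 neighbour of Bfsp2 is not reported here. The genes, lists and letters searched were chosen with earlier results of these data known. Of the marker lists, the 5 macrophage markers summed to 3.96 to 10.5 CPM, the 4 pigmented epithelium markers to 3.58 to 26.4 CPM and the 1 red blood cell marker to at most 1.35 CPM, each with none called. Alternatives were the settings given in the closing section. The Y-linked covariate and the transcript length were added after seeing the data. Figures were drawn with matplotlib in Python.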

Additional observations from a re-analysis of the deposited data

How the results depend on the processing

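Bfsp1 was past the cut-offs under all of the other analysis settings (log2 fold-change -1.49 to -1.21) except the Y-linked covariate (-1.33), and with each library left out it ranged from -1.72 to -1.30, with the call lost without Control library 2 or Celf1cKO library 3. Bfsp2 was not called under any planned setting, ranged from -0.75 to 0.73 with libraries left out, and gave 2.10 with the Y-linked covariate. Vim turned positive under total-count scaling (0.15), quantile normalization (0.082) and the Y-linked covariate (0.12), and ranged from -0.18 to 0.0011 with libraries left out. Synm turned to 0.031 under total-count scaling, and Krt18 to -0.32 with the Y-linked covariate. Krt18 ranged from -0.26 to 0.52 with libraries left out, below 0 without Control library 2, Celf1cKO library 1 or Celf1cKO library 3. Robust empirical Bayes, limma voom, median centring, no filter on low values and adjustment over expressed genes only were also run. The replicate block moved the count of called plakins and linkers from 1 to 2 and of beaded filament partners from 1 to 0, added Gfap and, among the markers, Pdgfrb, and changed no other call among the 9 genes.

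The number of all genes called was 1030 (1279 with the replicate block), 421 without a variance trend, 1867 with total-count scaling, 1550 with no fold-change cut-off, 16 with the Y-linked covariate, and 1 to 1916 with libraries left out. The elevated share of these calls was 64.5%, and 89.1% with total-count scaling. Of the 9 genes examined, 1, Bfsp1, was called without a variance trend, with total-count scaling and with scaling without crystallin genes. With libraries left out, 0 to 3 were called. With the Y-linked covariate, Bfsp1 and Nes were not called, and Bfsp2 passed the cut-offs upward, against Control library 3 alone. Called genes of the other intermediate filament family numbered 0 with the Y-linked covariate and 0 to 4 with libraries left out, and plakins and linkers 1 to 2. Beaded filament partners numbered 0 without a variance trend, with total-count scaling, quantile normalization, log2(CPM + 1) and the Y-linked covariate, 2 with no fold-change cut-off, and 0 to 1 with libraries left out. The Celf1cKO minus Control difference in the Vim share was 4.17 percentage points, 7.10 in CPM not per length and 7.47 per coding transcript. The cause was not tested for these changes. With libraries left out, the differences in share were -25.8 to -15.4 points for Bfsp1, 9.11 to 20.4 for Bfsp2 and 3.66 to 5.0 for Vim.

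Depth was no limit for Bfsp1, Bfsp2 or Vim. For Krt8, with 4 to 15 reads, and for Gfap in Celf1cKO library 2, with 26, counting error added to the spread.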
